A study of Mus musculus with 12 samples.

Results

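The genes of the cytosolic ribosomal proteins were followed through endoderm differentiation of F9 cells with and without depletion of the histone demethylase Kdm3a. Members were all array probes whose platform gene symbol starts with Rpl or Rps and a digit, or is Rpsa, Rplp0, Rplp1 or Rplp2, without the S6 kinases and without symbols of pseudogenes. The rule took 96 probes of 65 gene symbols, out of 45281 probes and 19057 symbols. Of the 65 symbols, 56 name ribosomal proteins and 9 name paralogues or other proteins with such a symbol (Rpl22l1, Rpl36al, Rpl39l, Rpl3l, Rpl7l1, Rps27l, Rps4l, Rps23rg1 and Rps19bp1). After a filter on dim probes, 57 of the 65 were tested among 11621 genes, 51 ribosomal proteins and 6 of the others. The 8 that were not tested, Rpl14, Rpl17, Rpl39l, Rpl3l, Rpl6, Rps20, Rps23 and Rps23rg1, were each detected on at most 1 of 12 arrays. Other ribosomal protein genes, Rpl5, Rpl11, Rpl7, Rpl10, Rps27, Fau and Rack1 among them, were not analysed here.

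F9 is a mouse teratocarcinoma line whose stem-like cells turn into primitive endoderm in retinoic acid and into parietal endoderm when cAMP is added. Knock-down cells carried pRS-kdm3a, and control cells (CTL) are given as wild type for Kdm3a expression. Each kind of cell was taken at 0 h with no treatment, at 72 h in retinoic acid, and at 6 d, the last 3 days of which also had cAMP. The 6 groups held 2 biological replicates each, hybridised to Illumina bead arrays. All cells share the F9 background, and the labels leave unsaid whether the knock-down cells are 1 clone or a pool and what the control cells carry.

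A ribosome joins a small subunit, built of ribosomal RNA and the Rps proteins, to a large subunit built of ribosomal RNA and the Rpl proteins. Nearly all of these proteins are needed in equal numbers, and their messenger RNAs are among the most abundant in growing cells. Most of these messenger RNAs begin with a run of pyrimidines, the terminal oligopyrimidine or TOP motif, through which mTOR signalling controls their translation. Myc and RNA polymerase I output set the supply of the other ribosome parts, and differentiation often slows that supply as cells divide less.

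The pyrimidine run at the start site is the feature that joins this family, so it was looked for first. RefSeq promoters (GRCm38.p6) were matched for 48 of the 57 tested genes. A run of at least 8 bases that are all C or T, on the gene's own strand and within 20 bases either side of the annotated start, stood in 21 of the 48 (43.8%), against 15.9% of all 27025 promoters. The mirror run, all A or G, stood in 3 (6.25%), against 17.3% of all promoters. A start that is itself C followed by 4 pyrimidines, the strict form, was present in 8 (16.7%), against 2.49%. The stretches of 6 genes named below are shown, 40 bases before the first listed start and 20 bases from it on, with the longest run of at least 8 pyrimidines around the start in capitals. They were picked because Rpl7a, Rps15a and Rpl4 fell in at least 1 comparison and hold such a run, and Rpl23 and Rplp0 fell without one, while Rpl22 showed the largest averaged knock-down difference.
Rpl7a, chr2:26910767-26910826, plus strand: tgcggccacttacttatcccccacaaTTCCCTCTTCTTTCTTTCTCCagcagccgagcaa
Rps15a, chr7:118116128-118116187, minus strand: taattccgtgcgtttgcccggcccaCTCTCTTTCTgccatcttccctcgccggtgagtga
Rpl4, chr9:64173347-64173406, plus strand: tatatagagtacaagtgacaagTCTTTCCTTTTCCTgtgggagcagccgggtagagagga
Rpl22, chr4:152325686-152325745, plus strand: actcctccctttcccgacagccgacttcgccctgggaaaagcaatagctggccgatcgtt
Rplp0, chr5:115559427-115559486, plus strand: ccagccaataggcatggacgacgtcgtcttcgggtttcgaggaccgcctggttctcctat
Rpl23, chr11:97782420-97782479, minus strand: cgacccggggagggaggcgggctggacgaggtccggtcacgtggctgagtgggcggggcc
The run is 21 bases long in Rpl7a, 14 in Rpl4 and 10 in Rps15a. Of these it spans the annotated start in Rpl7a alone. In Rpl4 and Rps15a it begins at -18 and -15 relative to that start and ends before it. By this annotation the run in Rpl4 and Rps15a thus lies outside the transcript. In Rpl22, Rplp0 and Rpl23 no run of 8 was found in the window, which says only that these letters are not there around the first listed start. Rpl22 has 2 annotated starts.

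Markers of the labelled cells were looked at by detection. All 6 stem-state markers (Pou5f1, Sox2, Nanog, Zfp42, Dppa5a and Utf1) were detected in every group, so their detection does not tell the stages apart. Of 9 endoderm markers, both arrays detected 4 in knock-down and 3 in control cells at 0 h, 8 in each at 72 h, and 9 in each at 6 d. The one detected at 0 h in knock-down cells alone was Gata6, at 7.30 and 6.79 against 5.17 and 5.32 in control cells. Of 5 fibroblast genes at most 2 were detected on both arrays of a group, with Dcn on all arrays of 6 d, and of 3 macrophage and blood genes none was. Kdm3a, in normalized log2 intensity, was 8.93 and 8.88 in knock-down cells of 0 h against 9.97 and 9.98 in control cells. At 72 h it was 8.17 and 8.06 against 9.78 and 9.90, and by 6 d 7.76 and 7.53 against 9.29 and 9.12. It was lower on both knock-down arrays than on both control arrays at each stage, with an averaged difference of -1.45 (SE 0.11, limma adjusted p = 5.78e-04). The difference was -1.07 at 0 h, -1.73 at 72 h and -1.57 at 6 d, with limma adjusted p of 0.123, 0.0262 and 0.0675. By single stage the depleted gene itself thus passed at 72 h alone. Over 19450 probes that no array detected, the 4 arrays of 72 h correlated with each other at 0.434 to 0.510, and a set of 3 others (knock-down 0 h replicate 2, control 6 d replicate 2 and knock-down 6 d replicate 2) at 0.395 to 0.427, against 0.125 to 0.341 for all other pairs. The 72 h arrays thus cannot be told apart from the 72 h stage in their background, and results are given with and without the other 3 where it matters.

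Probes of this family sat at the top of the scale. On every array, 39 of the 57 were among the brightest 1% of probes and 45 among the brightest 5%. The median of the 57 log2 intensities was lowest, at 13.53, on knock-down 6 d replicate 1 and highest on control 0 h replicate 2, and the gap was less than 1 doubling. Replicates of these genes lay close together, with a median residual SD of 0.12 on the log2 scale against 0.28 for all genes. The test used a spread shared in part between genes, so its median SE for a difference of 2 groups was 0.20 for these genes and 0.28 for all. With 2 arrays a group, the 95% interval of a typical member's difference was its value plus or minus 0.44.

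The top of the scale was not the same on all arrays. At 72 h the brightest raw value of an array was 37214 to 44038, against 41054 to 55172 on the others, although the 95th percentile of raw intensity was higher at 72 h (2162 to 2533, against 908 to 1720). Between 27 and 30 of the 57 member probes lay above the midpoint between zero and the brightest raw value on the 72 h arrays, against 5 to 18 on the others. The share of all raw intensity that fell on member probes was 4.42% to 5.10% at 0 h, 4.02% to 4.11% at 72 h and 4.04% to 4.55% at 6 d. Differences between 72 h and the other stages for the brightest probes therefore rest on raw values near the top of the scale. How far the scanner's range shaped them was not tested.

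**Figure D1:**
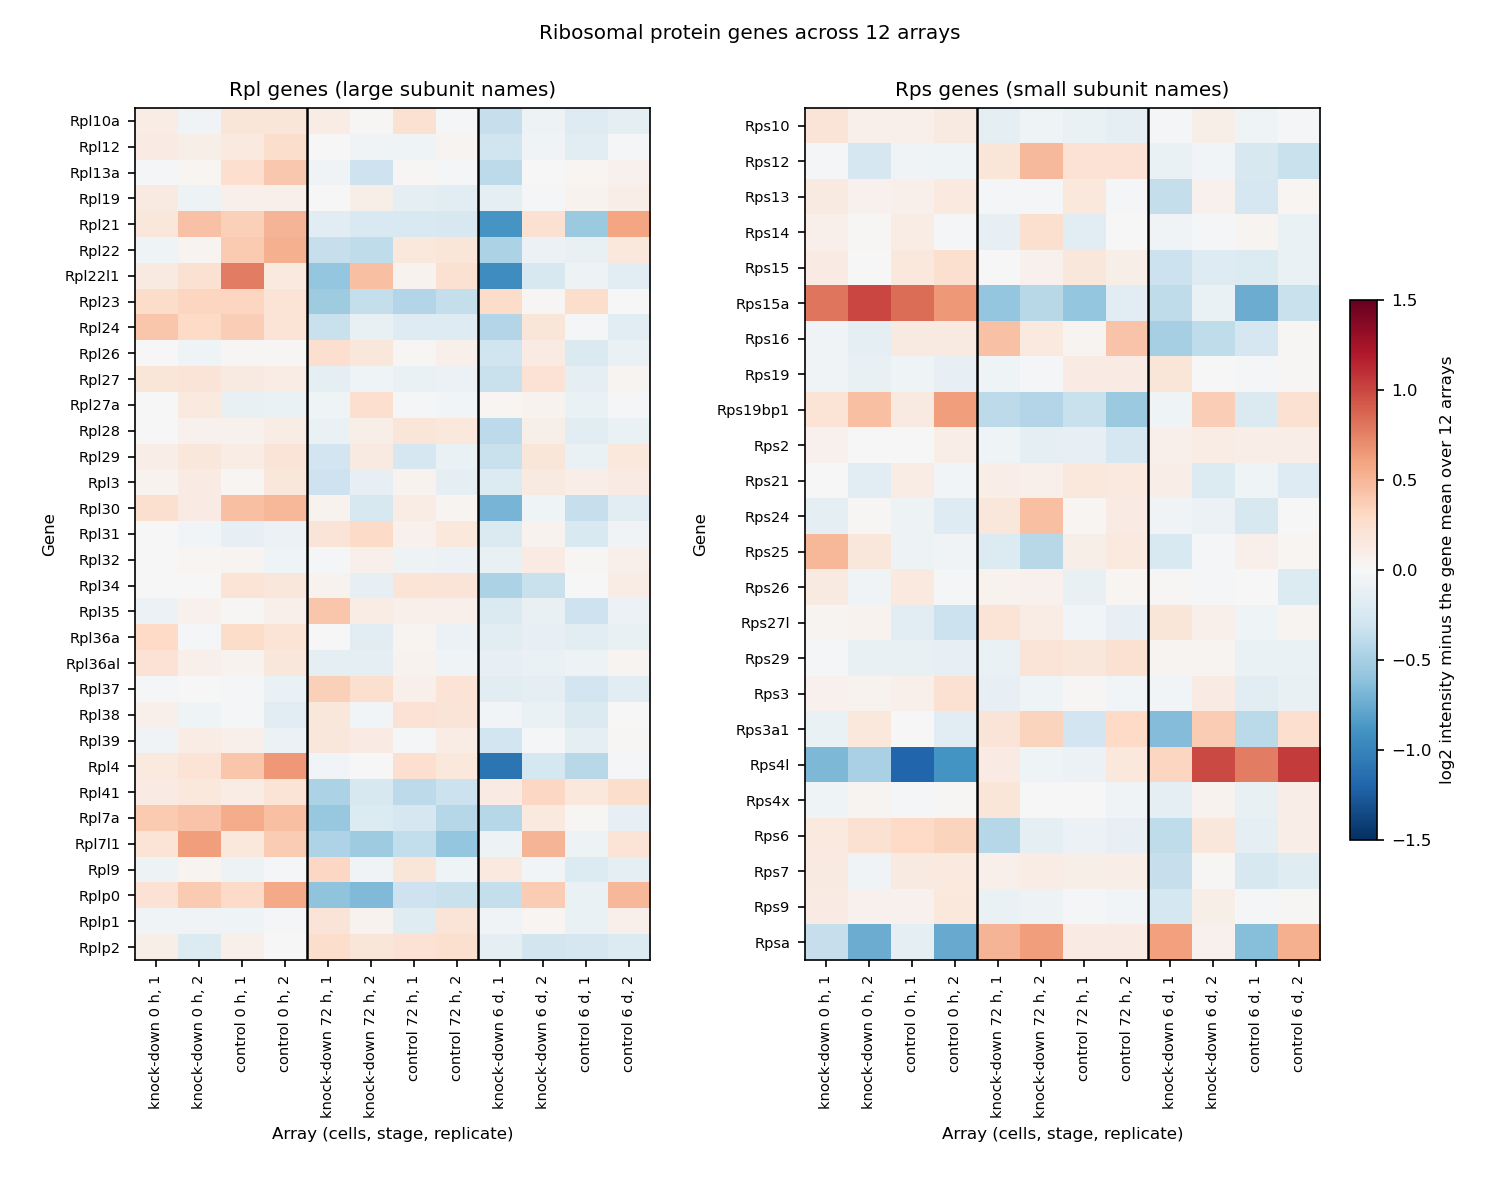
Each row is 1 of the 57 tested genes and each column 1 of the 12 arrays, with knock-down left of control within each stage. Colour gives the normalized log2 intensity minus the gene's mean over the arrays. Rps4l rises to the right, Rps15a is high at 0 h, and most other rows stay pale.

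No member differed between knock-down and control cells by the adjusted test. None of the 57 genes passed an adjusted p of 0.05 in limma at 0 h, 72 h, 6 d or averaged over the stages. Kdm3a itself passed at 72 h and averaged, and not at 0 h or 6 d. The share of all genes called was 0.0516% at 0 h (0.0172% higher, 0.0344% lower), 0.00861% at 72 h, 0% at 6 d and 0.413% for the average (0.181% higher, 0.232% lower), so few calls were made anywhere. In such bulk samples, fewer cells with a transcript and less of it per cell cannot be told apart. At an unadjusted p under 0.05 the counts were 1, 1, 1 and 3 of 57, which is 1.75%, 1.75%, 1.75% and 5.26%, against 8.15%, 3.45%, 7.85% and 12.0% of all genes. In the settings tried beside this one, the counts at each single stage were 0 throughout, and 1 gene, Rpl22, passed for the average under 2 of them.

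The differences themselves were small. The median of the 57 knock-down minus control differences was -0.02 at 0 h, -0.01 at 72 h, -0.01 at 6 d and -0.00 averaged, on the log2 scale, against 0.00, 0.01, -0.01 and -0.00 for all genes. All 57 lay within 0.5 log2 units of zero at 0 h and at 6 d, and 56 did at 72 h, whereas 85.0%, 84.9% and 92.5% of all genes did at 0 h, 6 d and 72 h. A difference of 0.5 is a ratio of 1.41. All genes were not matched to the members for brightness here. Knock-down arrays lay wholly above control arrays for 6, 12 and 6 members at 0 h, 72 h and 6 d, where 18.8%, 19.6% and 13.8% of all genes did so. They lay wholly below for 13, 15 and 7 members, where 18.7%, 19% and 13.1% of all genes did. The 95% intervals of 55, 54 and 53 of the 57 stayed within 1 log2 unit of zero at 0 h, 72 h and 6 d, and those of all 57 did for the average.

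**Figure D2:**
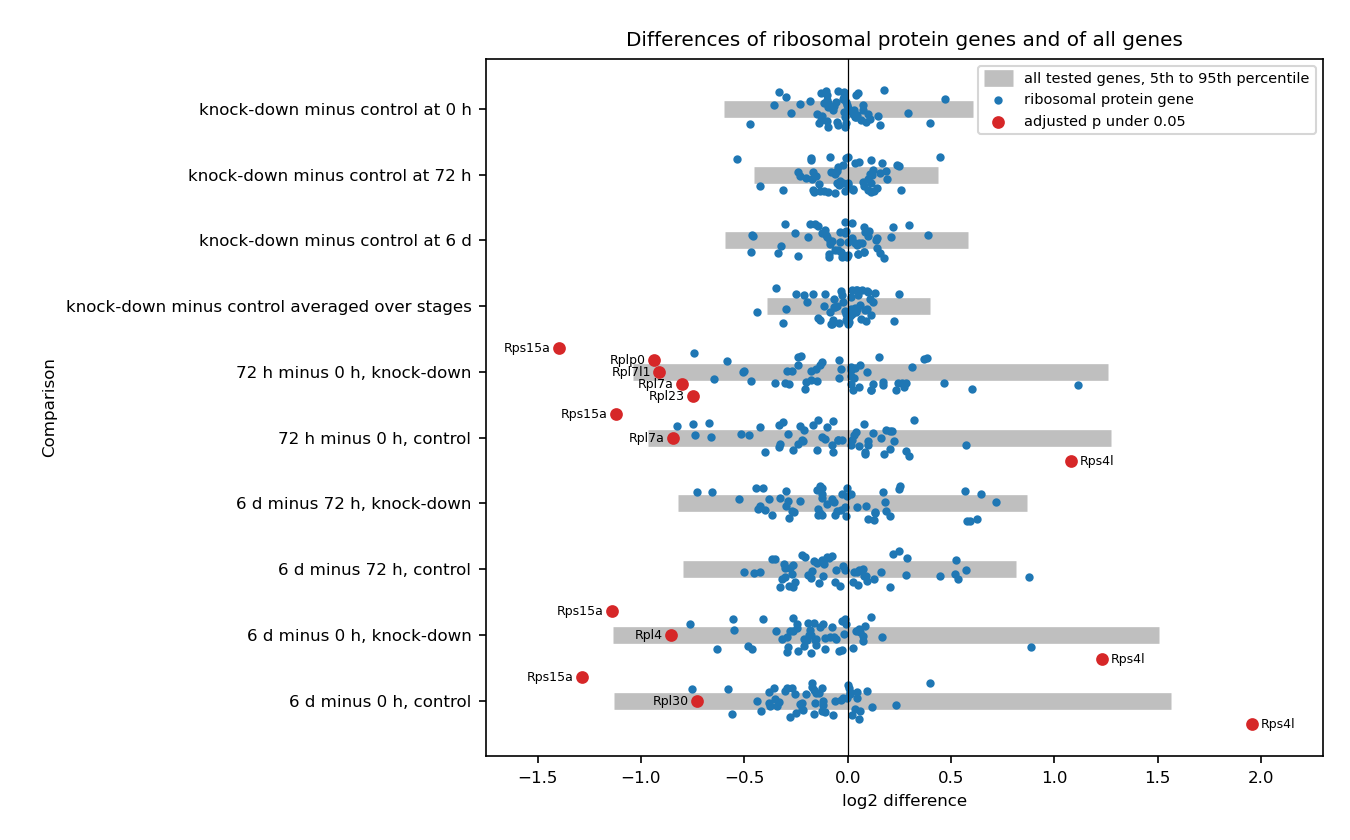
Each point is 1 of 57 ribosomal protein genes, placed along the horizontal axis by its log2 difference in the comparison named at the left, with a vertical scatter that carries no value. Grey bars span the 5th to 95th percentile of all 11621 genes, and red points passed an adjusted p of 0.05. No point is red in the knock-down comparisons.

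Rpl22, an RNA-binding protein of the large subunit that mouse cells can lose because the paralogue Rpl22l1 replaces it, had the largest averaged difference. Its levels were 10.09 and 10.20 in knock-down against 10.55 and 10.70 in control cells of 0 h, 9.81 and 9.78 against 10.32 and 10.34 by 72 h, and 9.69 and 10.08 against 10.05 and 10.32 by 6 d. Knock-down arrays were below control arrays at 0 h and 72 h, and the groups overlapped at 6 d. The differences were -0.47 at 0 h (SE 0.21, limma adjusted p = 0.591) and -0.54 at 72 h (adjusted p = 1.00), and the average was -0.44 (SE 0.12, adjusted p = 0.155), a ratio of 0.739. None of these passed. The average passed with the authors' processed table (adjusted p = 0.0465), with a block for the set of 3 arrays (0.0480), and without knock-down 6 d replicate 2 (0.0480), and not in the other 11 fits that left out 1 array.

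The paralogue Rpl22l1 was followed beside it. Its probe was dim, at 6.57 and 6.67 in knock-down against 7.21 and 6.59 in control cells at 0 h, 5.87 and 6.90 against 6.49 and 6.68 at 72 h, and 5.51 and 6.20 against 6.37 and 6.27 at 6 d. Knock-down and control arrays overlapped at 0 h and 72 h, knock-down lay below at 6 d, and the averaged difference was -0.31 (SE 0.20, adjusted p = 0.614).

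Other differences between knock-down and control were of like size and none passed. Rps25, a small subunit protein that some viral messengers need, changed sides between stages. Levels were 12.98 and 12.64 in knock-down against 12.40 and 12.43 in control cells of 0 h, 12.27 and 12.06 against 12.56 and 12.62 by 72 h, and 12.25 and 12.45 against 12.56 and 12.51 by 6 d. The knock-down arrays were above the controls at 0 h (difference 0.40, adjusted p = 0.719) and below them at 72 h (-0.42, adjusted p = 1.00) and 6 d. Rpl34, of the large subunit, was at 13.24 and 13.38 in knock-down and 13.73 and 13.83 in control cells at 6 d, a difference of -0.47 (SE 0.19, adjusted p = 0.562). Rps4l, a transcribed pseudogene described below, was higher in knock-down cells at 0 h, at 9.78 and 9.97 against 9.26 and 9.56 in control cells (0.47, SE 0.26, adjusted p = 0.759), without overlap. Rpsa, another small subunit gene, was higher in knock-down cells at 72 h, at 5.88 and 6.00 against 5.49 and 5.49 (0.45, SE 0.37, adjusted p = 1.00), also without overlap. Rpl4, of the large subunit, differed by -0.46 at 6 d (adjusted p = 0.765) with overlapping arrays, since its knock-down replicates were 9.94 and 10.77. Its averaged difference was -0.35 (adjusted p = 0.416).

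Few genes had all knock-down arrays on 1 side of the controls at all stages. Rpl13a and Rpl34 were lower on both knock-down arrays than on both control arrays at all 3 stages, 2 of 57, where 2.09% of all genes were. Rps27l, a paralogue of Rps27 that p53 induces in human cells, was higher at all 3 stages, 1 of 57 against 2.22% of all genes. It stood at 14.50 and 14.52 in knock-down against 14.30 and 14.14 in control cells at 0 h, 14.67 and 14.58 against 14.42 and 14.34 at 72 h, and 14.65 and 14.55 against 14.41 and 14.50 at 6 d. The arrays did not overlap at any stage, and the averaged difference of 0.23 did not pass (adjusted p = 0.454). By group means, 17 of 57 were lower in knock-down cells at all 3 stages and 7 were higher, where 19.9% and 20.4% of all genes were.

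Few of these genes were called at 72 h in retinoic acid against 0 h, and most of those called fell. In knock-down cells 5 of 57 fell and none rose, and in control cells 2 fell and 1 rose. Over all genes 16.4% changed in knock-down cells (8.79% higher, 7.61% lower) and 14.8% in control cells (8.11% higher, 6.69% lower). The members' shares in either direction, 8.77% and 5.26%, lay below that level. All calls in knock-down cells were falls, and as a share of falls the 8.77% lay near the 7.61% of all genes. The 72 h arrays lay wholly above the 0 h arrays for 15 members and below for 24 in knock-down cells, where 32.4% and 31.7% of all genes did, and for 15 and 26 in control cells, where 32.4% and 34% did. The median difference of the 57 was -0.04 in knock-down and -0.08 in control cells, against -0.00 and -0.02 for all genes. With median centring in place of quantile normalization, which moved the median of all genes by 0.61 in knock-down and 0.58 in control cells, the members' medians were 0.24 and 0.17. The sign of a typical member's difference at 72 h thus depends on the scaling, and relative to the median of all genes the members were lower under both. Under median centring 3 members rose and 2 fell in knock-down cells, where 37.3% of all genes rose and 2.48% fell, and 1 rose and 2 fell in control cells, where 34.5% rose and 1.86% fell.

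Rps15a, a protein of the small subunit, was the member that fell most. In knock-down cells it stood at 7.04 and 7.25 at 0 h, then 5.67 and 5.83 at 72 h, and then 5.86 and 6.15 at 6 d. In control cells it stood at 7.09 and 6.89 at 0 h, then 5.66 and 6.07 at 72 h, and then 5.50 and 5.91 at 6 d. All arrays of 72 h and 6 d were below all arrays of 0 h. The log2 difference of 72 h over 0 h was -1.40 in knock-down cells (SE 0.24, limma adjusted p = 0.00284) and -1.12 in control cells (SE 0.24, adjusted p = 0.00976), to 38.0% and 45.9% of the 0 h level. Its probe was dim, with raw intensities of 170 to 313, and was detected on 11 of 12 arrays. Its difference under median centring was -0.72 in knock-down cells (adjusted p = 0.0711) and -0.44 in control cells (adjusted p = 0.285), so neither passed there. In the authors' deposited table of processed values, which keeps the background, the differences were -0.55 and -0.43.

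Rps4l was the member that rose. RefSeq lists it as a transcribed pseudogene related to the X-linked small subunit gene Rps4x. In knock-down cells it stood at 9.78 and 9.97 at 0 h, then 10.58 and 10.39 at 72 h, and then 10.78 and 11.44 at 6 d. In control cells it stood at 9.26 and 9.56 at 0 h, then 10.36 and 10.62 at 72 h, and then 11.22 and 11.51 at 6 d. The arrays of each stage lay above all arrays of the stage before in both kinds of cell. At 72 h against 0 h the difference was 0.60 in knock-down cells (adjusted p = 0.136) and 1.08 in control cells (SE 0.26, adjusted p = 0.0173), and these differences were not distinguished (interaction -0.48, SE 0.36, adjusted p = 1.00). Its parent gene Rps4x differed by 0.09 in knock-down and -0.03 in control cells at 72 h. Ribosomal protein genes have many processed copies in the genome, and how much of a probe's signal comes from copies was not tested.

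**Figure D3:**
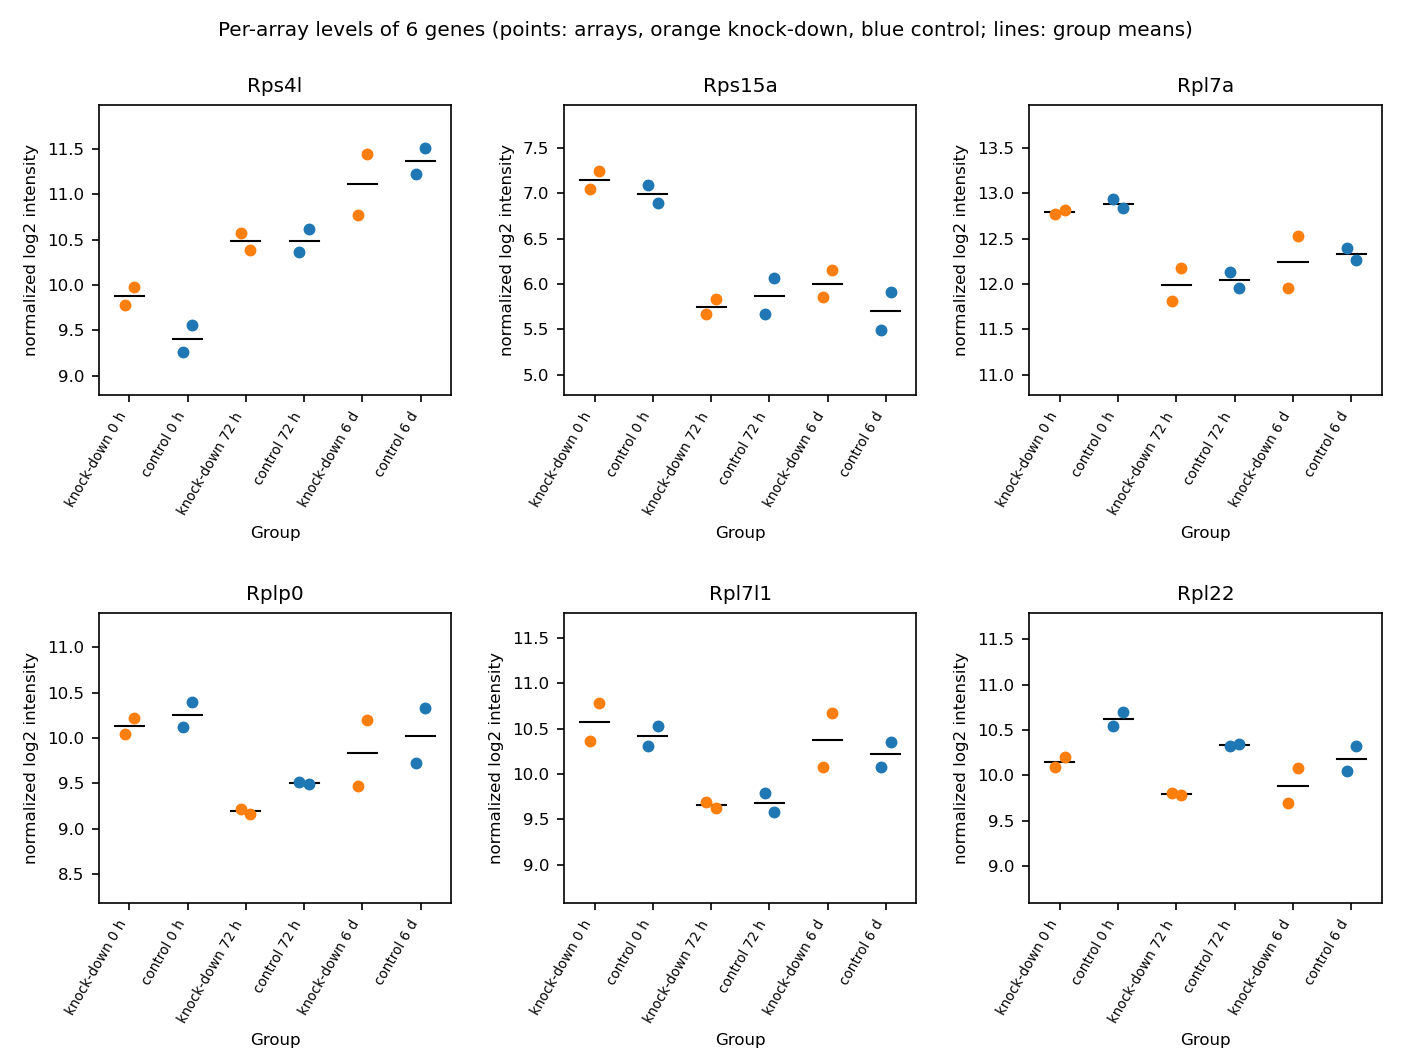
Points are single arrays (orange knock-down, blue control) and lines are group means, with normalized log2 intensity on the vertical axis over the same span of 3.2 units in every panel. Rps4l climbs over the stages and Rps15a drops after 0 h in both kinds of cell, while Rpl7a, Rplp0 and Rpl7l1 dip at 72 h and Rpl22 is lower in knock-down cells at 0 h and 72 h.

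The other falls at 72 h were smaller. Rpl7a, of the large subunit, stood at 11.81 and 12.18 at 72 h against 12.77 and 12.81 at 0 h in knock-down cells, and at 12.13 and 11.96 against 12.94 and 12.84 in control cells. The 72 h arrays were below the 0 h arrays in both, by -0.80 (SE 0.24, adjusted p = 0.0420) and -0.84 (SE 0.24, adjusted p = 0.0362). Under median centring these were -0.22 and -0.31 and did not pass.

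Rplp0, the protein that anchors the stalk of the large subunit, stood at 9.22 and 9.17 at 72 h against 10.04 and 10.22 at 0 h in knock-down cells, a difference of -0.94 (SE 0.28, adjusted p = 0.0429). In control cells it stood at 9.52 and 9.50 at 72 h against 10.12 and 10.39 at 0 h, and the difference of -0.75 did not pass (adjusted p = 0.101). Rpl7l1, a paralogue of Rpl7, differed by -0.91 in knock-down cells (SE 0.25, adjusted p = 0.0323) and by -0.74 in control cells (adjusted p = 0.0761). Both lost their call under median centring (-0.15 and -0.16 in knock-down cells). A dimmer probe of Rpl7l1, detected on all 12 arrays, differed by 0.04 in knock-down and -0.28 in control cells at 72 h. Its arrays overlapped in knock-down cells, so it did not share the fall called there. The other stalk proteins, Rplp1 and Rplp2, differed by 0.17 and 0.28 in knock-down cells at 72 h, with adjusted p of 0.602 and 0.352.

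Rpl23, which besides its place in the large subunit binds Mdm2, had probes that differed at 72 h. Its brightest probe stood at 14.50 and 14.67 at 72 h against 15.31 and 15.36 at 0 h in knock-down cells, and at 14.59 and 14.68 against 15.36 and 15.23 in control cells. The difference was -0.75 in knock-down cells (SE 0.20, adjusted p = 0.0294) and -0.66 in control cells (adjusted p = 0.0518). The call in knock-down cells was lost with the mean of the gene's probes (-0.34, adjusted p = 0.296), without the set of 3 arrays (-0.71, adjusted p = 0.0531), and in 4 of 12 fits that left out 1 array, those without a knock-down array of 0 h or 72 h (adjusted p up to 0.149). Its second probe stood at 14.49 and 14.61 at 72 h against 14.67 and 14.70 at 0 h in knock-down cells, and at 14.44 and 14.60 against 14.67 and 14.44 in control cells, with differences of -0.13 and -0.03. A dimmer probe differed by 0.28 in knock-down and -0.03 in control cells. The dimmest probe past the filter, detected on only 3 of 12 arrays, differed by -0.75 and -0.29.

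At 6 d, 3 days after cAMP was added, no member differed from 72 h by the adjusted test. In knock-down cells 0 of 57 passed in limma, against 3.83% of all genes (2.3% higher, 1.53% lower), with 10 at an unadjusted p under 0.05 (17.5%, against 21.2% of all genes). In control cells 0 of 57 passed, against 2.53% of all genes (1.54% higher, 0.99% lower), with 5 at an unadjusted p under 0.05 (8.77%, against 18.8% of all genes). The 6 d arrays lay wholly above the 72 h arrays for 12 members and below for 17 in knock-down cells, where 23.7% and 23.5% of all genes did, and for 15 and 25 in control cells, where 26.9% and 26.6% did. Other settings gave 0 to 4 calls in knock-down and 0 to 2 in control cells. The largest differences in knock-down cells were those of Rps16 (-0.73, SE 0.22, adjusted p = 0.0910), Rpl7l1 (0.72, adjusted p = 0.142) and Rpl4 (-0.65, adjusted p = 0.201). Rps16, of the small subunit, stood at 13.42 and 13.53 at 6 d against 14.36 and 14.06 at 72 h in these cells, and the arrays did not overlap. In control cells the largest were Rps4l (0.88, adjusted p = 0.102), Rpl41 (0.57, adjusted p = 0.147), which encodes a very short basic peptide, and Rpl7l1 (0.54, adjusted p = 0.284). The dimmer probe of Rpl7l1 stood at 6.12 and 7.02 at 6 d against 6.62 and 7.01 at 72 h in knock-down cells, with overlap. In control cells that probe stood at 6.68 and 7.00 against 6.53 and 6.37, without overlap. Under median centring Rps16 and Rpl4 passed in knock-down cells, with differences of -0.89 and -1.12. In that setting 17.2% of all genes fell and 1.89% rose in these cells.

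Over the whole course, 6 d against 0 h, few members of the family were called. In knock-down cells 1 member rose and 2 fell of 57, and in control cells also 1 rose and 2 fell. That is 5.26% of the members in each, where 22.3% of all genes changed in knock-down cells (12.1% higher, 10.2% lower) and 22.2% in control cells (12.2% higher, 10% lower). The differences of 49 members in knock-down and 51 in control cells stayed within 0.5 log2 units of zero, where 56.3% of all genes did in each. The 6 d arrays lay wholly above the 0 h arrays for 6 members and below for 19 in knock-down cells, where 27% and 27.7% of all genes did, and for 5 and 30 in control cells, where 28.7% and 31% did. The 2 comparisons are of different cells and share no arrays. All genes were not matched to the members for brightness, and 39 of the 57 were among the brightest 1% of probes on every array. Whether bright probes in general move less was not tested.

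Small differences leaned downward. At 6 d against 0 h, 46 of 57 members (80.7%) had a negative difference in knock-down and 42 (73.7%) in control cells, against 51.6% and 52.0% of all genes. The median of the 57 was -0.16 in both kinds of cell, against -0.03 for all genes. In knock-down cells that median was -0.03 without replicate 1 of 6 d and -0.28 without replicate 2, so its size depends on both arrays. Replicate 1 had the lowest member median level of all arrays, 13.53. In control cells the median difference was -0.09 without replicate 1 of 6 d and -0.22 without replicate 2. Under median centring the medians were -0.02 and -0.06, where the median of all genes was 0.15 and 0.11, so members were again below all genes.

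Rps4l and Rps15a carried the calls. Rps4l rose by 1.23 in knock-down cells (SE 0.26, limma adjusted p = 0.00588), to 2.35 times the 0 h level, and by 1.96 in control cells (SE 0.26, adjusted p = 3.29e-04), to 3.88 times. Both passed in all 12 fits that left out 1 array, with adjusted p of 0.00262 to 0.0478 and 1.09e-04 to 0.00580, and in all 11 other settings. Rps15a fell by 1.14 in knock-down cells (SE 0.24, adjusted p = 0.00572) and by 1.28 in control cells (SE 0.24, adjusted p = 0.00292), and passed in all 12 such fits, with adjusted p of 0.00530 to 0.0485 and 0.00234 to 0.0304. In knock-down cells the call on Rps15a was lost under median centring (-0.82, adjusted p = 0.0736). Its size depends on the background treatment, with -0.47 in knock-down and -0.49 in control cells in the authors' deposited table of processed values, and -0.84 and -0.90 with an offset of 50, all of which passed.

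The remaining calls at 6 d were near the threshold. Rpl4 stood at 9.94 and 10.77 at 6 d against 11.19 and 11.24 at 0 h in knock-down cells, a difference of -0.86 (SE 0.27, adjusted p = 0.0445) with no overlap but a wide gap between the 6 d replicates. Rpl30, a large subunit protein, stood at 10.47 and 10.66 at 6 d against 11.27 and 11.31 at 0 h in control cells, a difference of -0.73 (SE 0.24, adjusted p = 0.0494). In knock-down cells Rpl30 stood at 10.13 and 10.75 at 6 d against 11.05 and 10.94 at 0 h, again without overlap. Its dimmer probe, detected on all 12 arrays, stood at 8.19 and 7.96 against 8.54 and 8.38 in control cells, without overlap. In knock-down cells that probe stood at 7.37 and 7.96 against 8.11 and 7.88, with overlap. Rpl4 passed in 3 and Rpl30 in 2 of the 12 fits that left out 1 array, with adjusted p of 0.00460 to 0.253 and 0.0171 to 0.181.

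Whether stage and knock-down combine was tested directly. None of the 57 members passed the interaction test for 72 h against 0 h or for 6 d against 72 h in limma, nor did any of the 11621 genes (0% in both). At an unadjusted p under 0.05 there was 1 member for the first step (1.75%, against 3.52% of all genes) and none for the second (against 1.86%), and all other settings gave 0 calls. That member was Rps25, whose difference at 72 h against 0 h was -0.65 in knock-down cells (adjusted p = 0.0538) and 0.18 in control cells (adjusted p = 0.621). The interaction was -0.82 (SE 0.29, limma adjusted p = 1.00). Next in size were Rps4l, given above, and Rps16 (0.29, SE 0.31) for the first step, and Rps15a (0.41, SE 0.34), Rps16 (-0.38, SE 0.31) and Rpl21 (-0.38, SE 0.55) for the second, each with a limma adjusted p of 1.00. Rplp0, Rpl7l1 and Rpl23 passed in knock-down cells alone, and that was not a difference between the kinds of cell by this test.

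Paralogues and proteins with second roles were looked at by name. Rpl36a and Rpl36al, near-identical partners, differed by -0.29 and -0.26 in knock-down and by -0.38 and -0.12 in control cells at 6 d against 0 h, and neither passed. Rps4x, the parent of Rps4l, differed by -0.03 in knock-down and 0.00 in control cells. Rpl38, whose loss in mice impairs translation of Hox messengers, differed by 0.06 at 72 h in knock-down and 0.30 in control cells (adjusted p = 0.863 and 0.353), and by -0.07 and -0.02 at 6 d. These values are of its brightest probe. A dimmer probe of Rpl38, detected on all 12 arrays, differed by -0.31 in knock-down and -0.55 in control cells at 72 h. By 6 d its differences from 0 h were -0.63 and -0.49. The sign of the 72 h difference thus depends on the probe. Rps19 and Rps26, which are mutated in human Diamond-Blackfan anaemia, differed by 0.17 and -0.04 in knock-down and 0.10 and -0.16 in control cells at 6 d. Rpl10a, Rpl3 and Rpl39 had no adjusted p under 0.05 in any of these comparisons.

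Rpsa, the small subunit protein also known as the laminin receptor, was the only tested member that both arrays of some group failed to detect. It was not detected at 0 h in either kind of cell, detected on both arrays of each kind at 72 h, and on 1 of 2 at 6 d in each. Its values were 5.88 and 6.00 at 72 h against 5.02 and 4.62 at 0 h in knock-down cells, and 5.49 and 5.49 against 5.22 and 4.61 in control cells. The 72 h level in knock-down cells was at least 1.21-fold above the detection floor of the 0 h arrays, with an adjusted p of 0.0604 in limma, and no bound could be given in control cells.

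Probes of 1 gene did not always move together. Among the 16 tested genes with over 1 detected probe there were 23 further probes. Of these, 19 had the sign of the brightest at 6 d against 0 h in knock-down cells and 14 in control cells. At 72 h against 0 h, 12 of the 23 did in knock-down and 16 in control cells. The median gaps between probes there were 0.37 and 0.45 on the log2 scale. For knock-down minus control, 13 of the 23 had the sign of the brightest at 0 h, 8 at 72 h, 11 at 6 d and 8 averaged, with median gaps between probes of 0.20, 0.18, 0.27 and 0.15 on the log2 scale. The small knock-down differences given above are those of the brightest probes, and so are the counts and medians at 72 h and 6 d in the main setting. Rps24, which has several splice forms at its 3' end, had the widest gap between probes at 6 d. It is named here after its values were seen. Its brightest probe differed by -0.01 in knock-down and 0.01 in control cells. Its second probe stood at 9.94 and 9.80 at 0 h, then 9.36 and 9.16 at 72 h, and then 8.31 and 7.69 at 6 d in knock-down cells. In control cells that probe stood at 10.22 and 9.86 at 0 h, then 8.92 and 9.42 at 72 h, and then 8.74 and 7.67 at 6 d. Every array of 6 d was below every array of 0 h and 72 h of the same cells, with differences of -1.87 in knock-down and -1.83 in control cells against 0 h. The remaining detected probe differed by -1.06 in knock-down and -0.42 in control cells. Which splice form each probe reads was not tested.

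**Figure D4:**
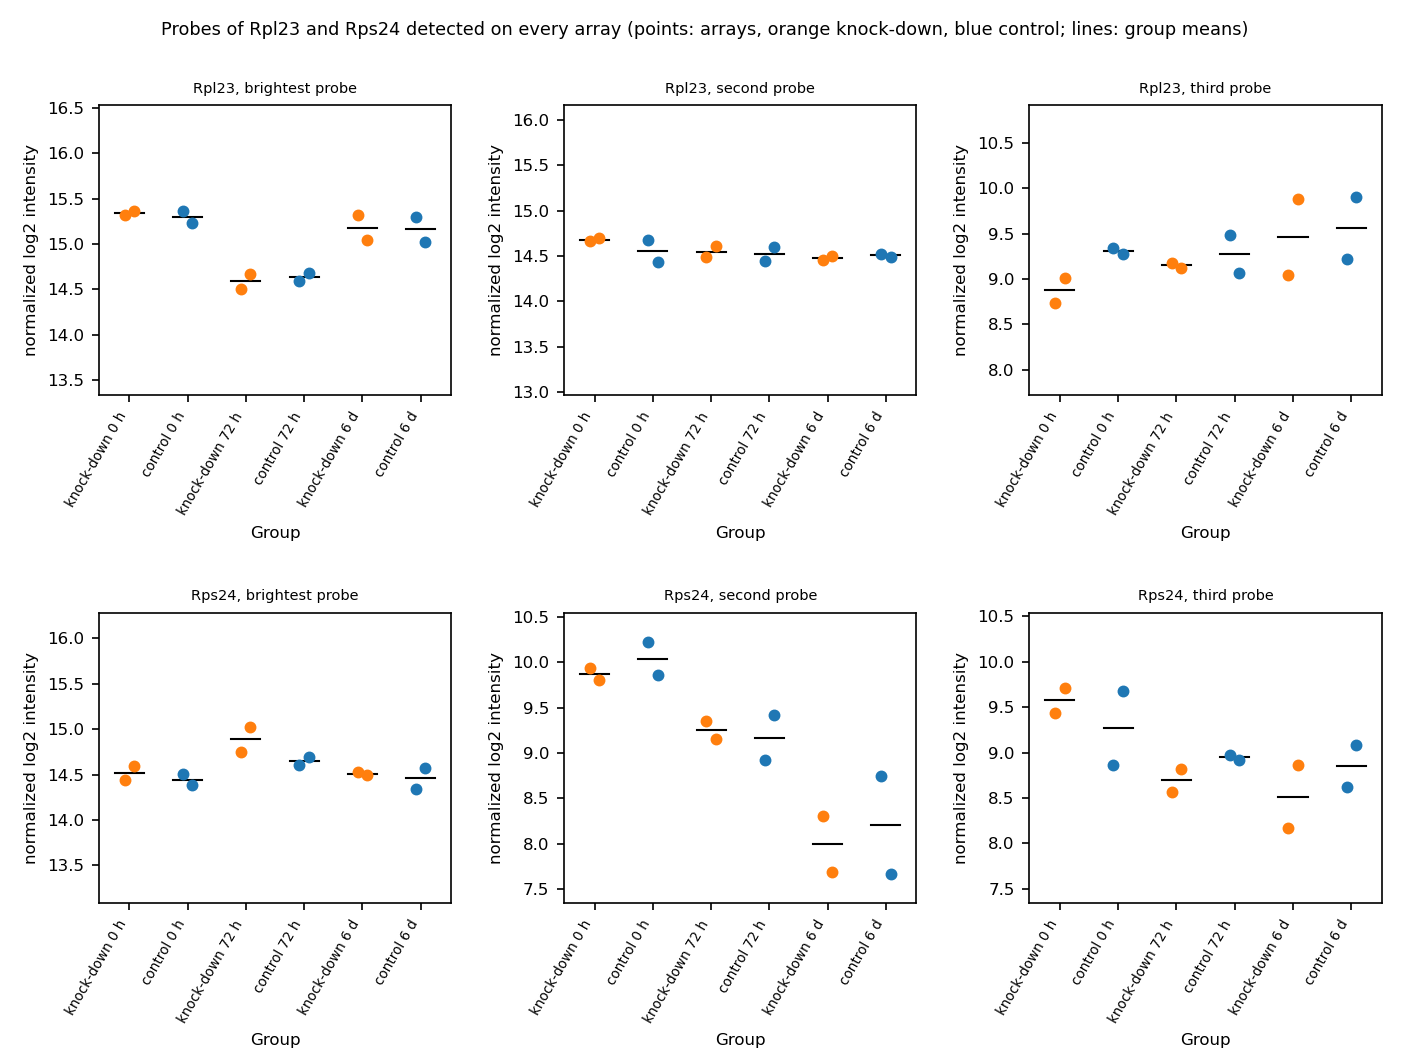
The 3 probes of Rpl23 and of Rps24 that were detected on every array, with single arrays as points (orange knock-down, blue control), group means as lines, and normalized log2 intensity over the same span of 3.2 units in each panel. The brightest Rpl23 probe dips at 72 h while its second stays level, and the second Rps24 probe declines over the stages while the brightest does not.

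Genes that make and run the ribosome were set beside its own proteins. Ribosome biogenesis factors, which process ribosomal RNA and assemble the subunits, had the most calls of the lists by number. At 6 d against 0 h, 29 of 63 tested factors fell and none rose in knock-down cells, and 29 of 63 fell and none rose in control cells, 46% in each, where 10.2% and 10% of all genes fell. Their median difference was -0.70 in knock-down and -0.73 in control cells, against -0.16 for the ribosomal proteins. Gnl3, nucleostemin, differed by -1.46 in knock-down (SE 0.28, adjusted p = 0.00352) and -1.28 in control cells (adjusted p = 0.00757). Heatr1, a factor of the small subunit processome, fell by 1.34 in knock-down cells, Nop56, of the box C/D particles that methylate ribosomal RNA, by 1.29 there, and Noc3l, a large subunit assembly factor, by 1.39 in control cells. Under median centring 5 and 8 of the 63 fell at 6 d and none rose, where 4.33% and 4.92% of all genes fell, a smaller contrast with all genes than above. Leaving out 1 array gave 5 to 41 falls in knock-down and 12 to 39 in control cells. In knock-down cells the count was 5 when replicate 2 of 0 h was dropped, 10 and 11 when replicate 1 of 0 h or of 6 d was, and 6 with only the groups compared. In control cells the count was 12 without either 0 h array, 14 and 19 without 6 d replicate 1 or 2, and 39 without either knock-down 6 d array, while without the set of 3 arrays it was 30 in knock-down and 45 in control cells.

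At 72 h against 0 h the biogenesis list depended on the scaling. There 10 of 63 factors fell in knock-down (15.9%) and 14 in control cells (22.2%), where 7.61% and 6.69% of all genes fell, with Gnl3 at -1.06 and -1.21 and Wdr43 at -1.02 and -1.04. Under median centring none fell and 3 rose in knock-down cells, and none fell and 1 rose in control cells. In that setting 37.3% and 34.5% of all genes rose. Leaving out 1 array gave 1 to 14 falls in knock-down and 0 to 17 in control cells. In knock-down cells the lowest counts were 1 and 3 when replicate 2 or 1 of 0 h was dropped and 4 and 2 when replicate 1 or 2 of 72 h was. In control cells they were 1 when either 0 h array was dropped and 2 and 0 when replicate 1 or 2 of 72 h was. Without the set of 3 arrays the counts were 7 and 23.

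RNA polymerase I and its factors, which transcribe ribosomal RNA, were fewer. Of 18 tested, 5 fell in knock-down (27.8%) and 6 in control cells (33.3%) at 6 d, and none rose. Ubtf, the upstream binding factor of that polymerase, fell by 1.65 in knock-down (SE 0.22, adjusted p = 3.85e-04) and by 1.38 in control cells (SE 0.22, adjusted p = 0.00121). Under median centring the counts were 1 and 2, where 4.33% and 4.92% of all genes fell. Leaving out 1 array gave 2 to 8 falls in knock-down cells, 2 when replicate 2 of 0 h or replicate 1 of 6 d was dropped and 8 when replicate 2 of 6 d was. In control cells it gave 2 to 7, 2 when replicate 2 of 0 h or replicate 1 of 6 d was dropped. Under median centring at 72 h none fell and 1 rose in each, where 37.3% and 34.5% of all genes rose. In the main setting at 72 h 4 of 18 fell in knock-down (22.2%) and 7 in control cells (38.9%). Without 1 array these counts ran from 0 to 7 in knock-down and 0 to 8 in control cells, the 0 when replicate 1 of 72 h was dropped from the knock-down arrays or either 72 h array from the controls.

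In the other lists the share that fell is set beside that of all genes, which was 10.2% in knock-down and 10% in control cells at 6 d and 7.61% and 6.69% at 72 h. Under median centring 37.3% and 34.5% of all genes rose at 72 h, and 2.48% and 1.86% fell. At 6 d in that setting 14.8% and 14% of all genes rose, and 4.33% and 4.92% fell. Of 71 mitochondrial ribosomal protein genes, which serve the separate ribosome of mitochondria, 5 fell (7.04%) and 2 rose in knock-down and 6 fell (8.45%) and 1 rose in control cells at 6 d, with Mrps6 rising in both (0.93 and 0.90). Under median centring none fell and 1 rose at 6 d in knock-down cells, and 1 fell and 1 rose in control cells. At 72 h 6 fell (8.45%) and 1 rose in knock-down and 11 fell (15.5%) in control cells, and under median centring 13 and 7 rose and none fell. Of 30 translation initiation factors, 2 fell (6.67%) and 1 rose in knock-down and 3 fell (10%) in control cells at 6 d, and the numbers that fell at 72 h were the same. Under median centring none of the initiation factors fell, and 5 and 3 rose at 72 h and 1 and 0 at 6 d. Of 16 elongation factors and other TOP genes, which share the pyrimidine start with the ribosomal proteins, 2 fell in knock-down (Npm1 and Ncl, 12.5%) and 3 in control cells (Npm1, Nap1l1 and Eif4a2, 18.8%) at 6 d, and at 72 h 1 fell in knock-down (Eef2) and none in control cells. None of these 16 fell under median centring, and 2 and 1 rose at 72 h.

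Of 6 snoRNA host genes, 2 fell in knock-down (33.3%) and 3 in control cells (50%) at 6 d, with Snhg5 at -1.24 and -1.61. Under median centring 2 fell in each at 6 d, while at 72 h, where 1 and 2 had fallen, none fell and 1 rose in each. Over all genes 37.3% and 34.5% rose at 72 h in that setting. Among 17 genes of the Myc family and growth control, 2 rose and 2 fell in knock-down and 2 rose and none fell in control cells at 6 d. Mxd4, an antagonist of Myc, rose by 2.59 in knock-down (SE 0.19, adjusted p = 6.95e-06) and by 2.58 in control cells (SE 0.19, adjusted p = 6.33e-06) at 6 d. Its relative Mxi1 rose by 1.28 and 1.44, while Mxd3, of the same family, fell by 0.95 in knock-down cells (adjusted p = 0.0310). Larp1, which binds TOP messengers, fell by 1.05 in knock-down cells (adjusted p = 0.00778). Under median centring neither fall was called. Dropping 1 array of the groups compared gave 0 falls in at least 1 fit for the initiation list at 72 h and 6 d, for the snoRNA hosts at 72 h, and for the elongation and mitochondrial lists at 6 d, in both kinds of cell. It did so too for the elongation list at 72 h in knock-down cells and for the mitochondrial list at 72 h in control cells, the last without replicate 2 of 72 h. None of the genes of these 7 lists passed between knock-down and control at any stage or averaged. Some genes stand in more than 1 list, such as Npm1, Ncl and Eif4a2.

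**Figure D5:**
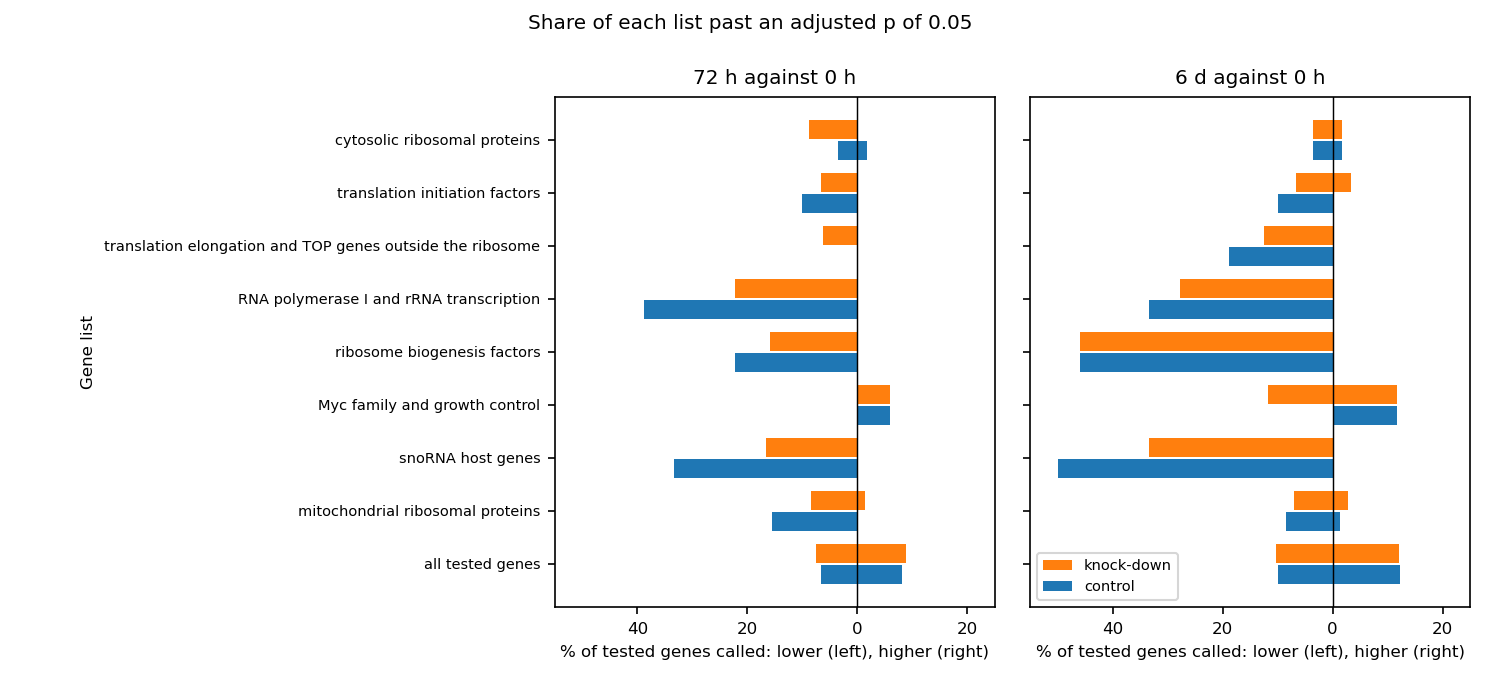
Bars give the percent of the tested genes of each list with an adjusted p under 0.05, lower to the left of zero and higher to the right, at 72 h and at 6 d against 0 h, with knock-down (orange) above control (blue). Ribosomal proteins lie below the level of all tested genes at 6 d, while biogenesis factors reach 46% lower.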

How the data were processed

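The authors deposited non-normalized probe intensities from 12 Illumina MouseWG-6 arrays, with a detection p-value for each probe and array, per the file headers. The sources used here do not give the summarising software. Per the labels' protocols, biotinylated cRNA was made from 200 ng of total RNA. Groups and replicate numbers came from the labels. Arrays give no read depth, and their number limits the precision.

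Background was corrected by nec in limma (version 3.58.1, R 4.3.3, offset 16), followed by quantile normalization and log2. The 21525 probes that 2 or more arrays detected (p under 0.05) stayed in, and the brightest probe stood for each of 11621 genes. Of all probes, 34885 have 1 symbol in the platform annotation, 18 several and 10378 none, and all 65 member symbols matched RefSeq. Group means were fitted to all genes over all arrays (lmFit, eBayes, 6 residual and 5.01 prior degrees of freedom), with Benjamini-Hochberg adjustment over all genes within each comparison. The code was tested on simulated data. Where neither array of a group detected a gene, a bound replaces the fold.

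Named in each comparison were members past an adjusted p of 0.05 without overlap of arrays (the 5 largest of each direction) or, where none passed, the 3 largest differences, together with fixed paralogues, stalk proteins and proteins with second roles, and up to 4 called genes of each list. The members, lists and rules were chosen with earlier results of these data known. Alternatives were median centring, the authors' deposited table of processed intensity values (quantile normalized without background subtraction, judged from its values), an offset of 50, other filters, the mean of a gene's probes, only the groups compared, a block for replicate numbers, and each array left out. A prior that follows intensity, and leaving out or blocking 3 arrays with like background, were added after seeing the data, as was applying all of these to the gene lists. Promoters came from RefSeq tables of GRCm38.p6, 300 bases each.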

Additional observations from a re-analysis of the deposited data

How the results depend on the processing

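The counts of called members at each single stage of knock-down against control, and in both interactions, were 0 in all fits. For the average over stages the count was 1 with the authors' processed table and with a block for the set of 3 arrays, and 0 to 1 when 1 array was left out. For 72 h against 0 h in control cells, 3 became 7 with the authors' table, 6 with an offset of 50, 5 with a stricter filter (detection p under 0.01 on 4 arrays), 6 with a prior that follows intensity, 8 without the set of 3 arrays, 7 with a block for them, 8 with only the groups compared, and 0 to 7 when 1 array was left out (0 without control replicate 1 of 0 h or of 72 h, 1 without replicate 2 of either, 7 without either knock-down 6 d array). In knock-down cells, 5 became 9 with the authors' table and 1 to 9 when 1 array was left out (1 without knock-down 0 h replicate 2 or either knock-down 72 h array, 9 without either knock-down 6 d array). For 6 d against 72 h, 0 became 2 in control cells with the authors' table, and 0 to 1 when 1 array was left out. In knock-down cells it became 2 with median centring, 4 with the authors' table, 1 with an offset of 50, 2 with a prior that follows intensity, 1 without the set of 3 arrays, 1 with a block for them, and 0 to 1 when 1 array was left out. For 6 d against 0 h in control cells, 3 became 6 with the authors' table, 5 without the set of 3 arrays, 6 with a block for them, and 2 to 4 when 1 array was left out. In knock-down cells, 3 became 1 with median centring, 5 with the authors' table, 5 with the mean of probes, 7 without the set of 3 arrays, and 2 to 7 when 1 array was left out (7 without knock-down 6 d replicate 2). The settings on the set of 3 arrays and on the prior were chosen after seeing the data. For 72 h against 0 h in control cells, 14.8% of all genes were called, 36.4% with median centring and 15.8% with that prior. For 6 d in knock-down cells the shares were 3.83%, 19.1% and 4.18% against 72 h, and 22.3%, 19.2% and 23.8% against 0 h. Shares for the other settings are not given here, so changes in these counts are not read as results about the members. Rpl7l1 at 6 d against 72 h in control cells turned to -0.0075 with median centring, and the interaction of Rpl21 for that step (-0.38) turned to 0.20 without control 6 d replicate 2 and to 0.18 without knock-down 6 d replicate 1, with -0.95 as its lowest value when 1 array was left out. None of these 3 values passed a test, and the cause of these changes was not tested.

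Arrays of equal replicate number deviated together in only 7 of 15 pairs of groups (correlation over 0.1, range -0.111 to 0.542), so the numbers were not taken as pairs. With the replicate number as a block, the count for 72 h against 0 h in control cells was 5 in place of 3, and no other count of members moved by over 1.5 times. Dim probes limit Rps15a, Rpsa and Rpl22l1, and the brightest probes rest on the top of the scale.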
